A study of Homo sapiens with 4 samples.

Results

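The H3.3 genes and the genes of the factors that place H3.3 in chromatin were examined for H3.3 itself. The 10 genes comprised *H3-3A*, *H3-3B* and *H3-5*, the HIRA complex genes *HIRA*, *UBN1*, *UBN2* and *CABIN1*, the histone donor *ASF1A*, and *ATRX* and *DAXX*. They were chosen by name from 20033 annotated protein-coding genes, by a rule that uses no measured value. An H3.3 interval, a stretch of the genome that the authors' peak caller listed as enriched, was assigned to a gene if it overlapped the gene body or lay within 5 kb of any annotated transcription start site (TSS).

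H3.3 is the histone H3 variant that is placed into chromatin outside of DNA replication. *H3-3A* and *H3-3B* encode the same protein, whereas *H3-5* is an H3.3-like gene known from testis that arose as a copy of *H3-3B*. The HIRA complex deposits H3.3 in active genes and at sites of UV damage, with ASF1A handing over the H3.3-H4 dimer, and the DAXX-ATRX pair deposits it in heterochromatin and at telomeres.

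Chromatin immunoprecipitation sequencing with an H3.3 antibody was performed in wild-type MRC5 human lung fibroblasts. The labels name the line MRC5, and the methods name MRC5_VA, an immortalized derivative. One group was untreated, and the other received 10 J/m2 of UV-C and 3 h of recovery. Each group was 1 library made from the pooled DNA of 3 replicates, so no spread between cultures could be measured and no test between groups was made. All differences given here are between 2 libraries, and UV and the library cannot be told apart.

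The list without UV held 88822 distinct intervals with a median width of 435 bp, and the list after UV held 77183 with a median width of 449 bp. Neither list gives read numbers, so depth is unknown. As a check of the labelled cell type, 5 of 6 fibroblast genes had a promoter interval without UV and 6 of 6 after UV, *PRRX1* only after UV. Among genes of other cell types, *SFTPC* had a promoter interval in both libraries and *NEUROD1* only after UV.

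A promoter interval was defined as one within 1 kb of any TSS of the gene. Of the 10 genes, 7 had a promoter interval without UV, against 48% of all protein-coding genes, and 7 had one after UV, against 54%. The same 7 genes (*H3-3A*, *H3-3B*, *HIRA*, *UBN1*, *UBN2*, *CABIN1* and *ASF1A*) were occupied in both libraries, a state found for 44.8% of protein-coding genes. *H3-5*, *ATRX* and *DAXX* had a promoter interval in neither, as did 42.8% of protein-coding genes. None of the 10 gained a promoter interval after UV (0 genes, against 9.2%) and none lost one (0 genes, against 3.2%). *CABIN1* counted only through TSSs inside the gene. With the TSS of the canonical transcript alone, 6 of 10 genes had an interval in each library, against 38.6% of protein-coding genes without UV and 46.6% after UV.

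**Figure D1:**
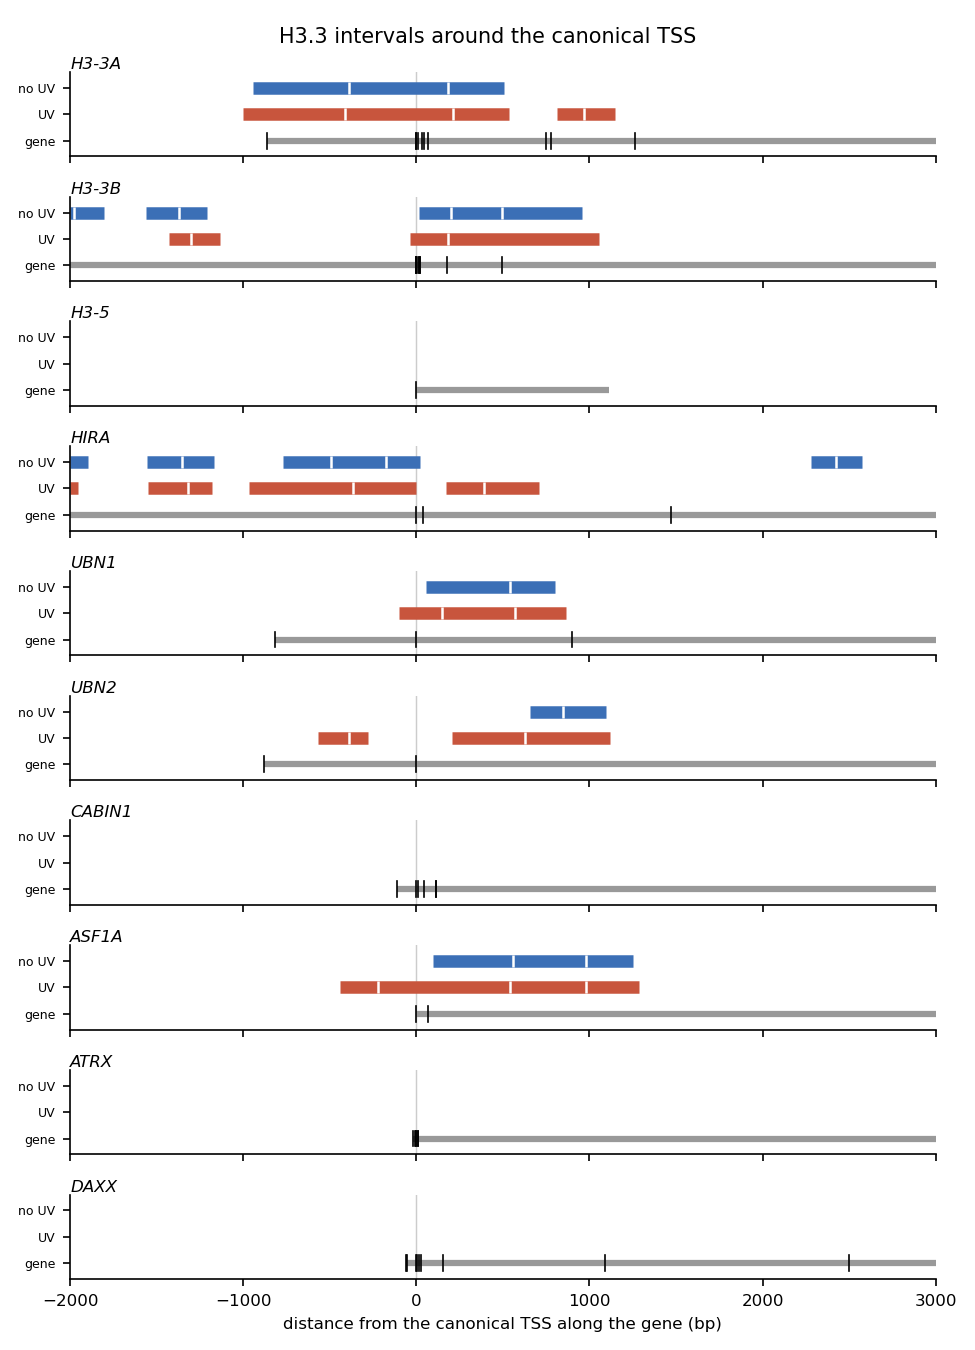
H3.3 intervals from 2 kb before to 3 kb after the canonical TSS of the 10 genes, drawn along the direction of transcription, with blue bars for no UV, red bars for UV, white ticks for summits, grey bars for the gene and black ticks for annotated TSSs. *H3-3A*, *H3-3B*, *HIRA*, *UBN1*, *UBN2* and *ASF1A* carried an interval here in both libraries, and *H3-5*, *CABIN1*, *ATRX* and *DAXX* carried none in this window in either.

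The promoter sequences that show where the H3.3 intervals begin and end are given first. RefSeq promoter windows of GRCh38.p14, from 250 bases before to 50 bases after a start, were matched to 7 of the 10 genes in 11 windows. *H3-5*, *ATRX* and *DAXX* had no entry. The windows printed are 5′ to 3′ on the gene's strand, and capitals mark the bases inside an H3.3 interval after UV. They were selected because they differ in coverage: wholly covered in both libraries (*H3-3A*), wholly covered after UV and uncovered without UV (*ASF1A*), partly covered (*UBN1*, *H3-3B*, *HIRA*), and uncovered in both (*CABIN1*).
H3-3A, chr1:226062466-226062765, plus strand: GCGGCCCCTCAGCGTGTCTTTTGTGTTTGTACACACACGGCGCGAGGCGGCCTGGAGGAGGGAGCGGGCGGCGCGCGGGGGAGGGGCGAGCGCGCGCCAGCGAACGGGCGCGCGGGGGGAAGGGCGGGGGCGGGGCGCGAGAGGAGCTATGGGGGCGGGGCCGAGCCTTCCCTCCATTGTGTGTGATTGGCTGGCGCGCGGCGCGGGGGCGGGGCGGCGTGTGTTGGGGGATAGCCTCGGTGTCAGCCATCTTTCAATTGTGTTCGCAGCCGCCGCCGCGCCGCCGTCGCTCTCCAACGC
ASF1A, chr6:118893902-118894201, plus strand: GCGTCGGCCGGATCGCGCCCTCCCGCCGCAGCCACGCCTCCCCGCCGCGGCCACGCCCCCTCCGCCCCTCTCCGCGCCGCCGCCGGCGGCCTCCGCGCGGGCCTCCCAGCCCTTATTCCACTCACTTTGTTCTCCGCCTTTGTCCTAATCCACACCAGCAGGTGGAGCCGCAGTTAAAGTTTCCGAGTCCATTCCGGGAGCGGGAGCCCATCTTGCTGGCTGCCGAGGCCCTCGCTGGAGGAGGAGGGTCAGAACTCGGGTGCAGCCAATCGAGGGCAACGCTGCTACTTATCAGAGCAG
UBN1, chr16:4847231-4847530, plus strand: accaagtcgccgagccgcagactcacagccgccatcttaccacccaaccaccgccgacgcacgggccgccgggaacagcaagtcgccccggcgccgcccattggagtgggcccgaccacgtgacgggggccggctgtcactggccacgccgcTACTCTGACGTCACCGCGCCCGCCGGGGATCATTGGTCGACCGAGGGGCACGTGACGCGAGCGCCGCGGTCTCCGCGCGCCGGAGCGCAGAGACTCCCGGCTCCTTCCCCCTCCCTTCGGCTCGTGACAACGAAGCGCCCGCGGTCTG
H3-3B, chr17:75779730-75780029, minus strand: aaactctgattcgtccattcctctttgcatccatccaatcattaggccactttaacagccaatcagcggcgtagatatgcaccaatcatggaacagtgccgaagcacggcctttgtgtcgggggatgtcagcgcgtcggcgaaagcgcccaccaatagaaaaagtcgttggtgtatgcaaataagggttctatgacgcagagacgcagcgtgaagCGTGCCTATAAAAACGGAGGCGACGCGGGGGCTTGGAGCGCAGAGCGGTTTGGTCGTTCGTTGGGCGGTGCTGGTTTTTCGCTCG
HIRA, chr22:19431684-19431983, minus strand: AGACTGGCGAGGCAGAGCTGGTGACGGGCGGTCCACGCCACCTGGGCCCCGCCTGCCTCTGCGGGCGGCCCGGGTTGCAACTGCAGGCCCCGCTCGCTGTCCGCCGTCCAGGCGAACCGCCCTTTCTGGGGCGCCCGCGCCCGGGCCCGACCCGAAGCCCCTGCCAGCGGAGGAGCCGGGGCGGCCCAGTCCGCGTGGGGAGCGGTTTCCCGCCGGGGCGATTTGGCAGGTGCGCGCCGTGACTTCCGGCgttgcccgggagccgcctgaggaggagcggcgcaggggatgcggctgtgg
CABIN1, chr22:24011120-24011419, plus strand: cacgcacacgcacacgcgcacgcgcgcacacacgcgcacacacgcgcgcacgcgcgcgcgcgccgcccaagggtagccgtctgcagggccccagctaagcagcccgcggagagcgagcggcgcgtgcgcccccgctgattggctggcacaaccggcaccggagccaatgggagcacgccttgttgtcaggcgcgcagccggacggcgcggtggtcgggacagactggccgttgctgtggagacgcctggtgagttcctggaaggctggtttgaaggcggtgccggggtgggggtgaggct

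In the *H3-3A* window, all 300 bases were covered in both libraries. In the *ASF1A* window, coverage was 0 bases without UV and 300 bases after UV, and in the *UBN1* window 0 and 148 bases. The *H3-3B* window had 35 bases covered without UV and 85 after UV, all at its 3′ end. The *HIRA* window had 274 and 250 bases covered, at its 5′ end, so coverage there was shorter after UV. The windows of *CABIN1* and *UBN2* had 0 covered bases in either library. Over all 35116 windows of the table, 18.5% held at least 1 covered base without UV and 25.9% after UV, and 5.72% and 10.3% were covered whole.

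The windows also differed in their letters. The *H3-3A* window was 74% G and C with 44 CpG, and the *H3-3B* window was 54% with 27 CpG, against a table median of 58.7% and 14 CpG. Motifs were searched as exact letters on both strands, with positions counted from the start base as 0 to the first base of the match. The *H3-3A* window held GGGCGG 6 times, with 1 base shared by the matches at -44 and -39, and CCAAT 1 time, whereas the *H3-3B* window held CCAAT 4 times, TATAAA at -29 and GGGCGG 1 time. Of all windows in the table, 44.95% held GGGCGG, 34.6% CCAAT and 11.5% TATAAA. The *UBN1* window held TGACGTCA at -93, letters found in 1.85% of windows, and CACGTG 2 times, found in 7.26%. Of the *UBN1* matches, none of which overlap, TGACGTCA and the CACGTG at -50 lay among the capitals, and the CACGTG at -134 did not. *HIRA* had GGGCGG 4 times, and no match to the other letters. These matches describe the letters only.

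*H3-3A*, the H3.3 gene on chromosome 1 (hg38 chr1:226061851-226072019, plus strand, 10169 bp, 10 TSSs), had 7 of its TSSs, the canonical one included, inside 1 interval in each library. Without UV the interval spanned chr1:226061774-226063222 (1449 bp), with a −log10 q of 30.5 and a 5.65-fold enrichment over the local background of its library. The −log10 q is the authors' false-discovery-adjusted measure of each interval within its own library, so values of the 2 libraries are not on a common scale. Ranks are given for most of the strongest promoter intervals and for some others, and values printed without a rank do not measure a change. The value of 30.5 lay at the 82.4 percentile of the strongest promoter intervals of all genes that had one without UV. After UV the interval spanned chr1:226061716-226063253 (1538 bp), with a −log10 q of 55.8, the 88.1 percentile of its library, and 7.59-fold enrichment. Its strongest summit lay upstream of the canonical TSS in both libraries, at -386 bp without UV and -410 bp after UV. The divergent non-coding gene *H3-3A-DT* starts within 1 kb of the interval, which therefore cannot be assigned to *H3-3A* alone.

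Further into *H3-3A*, a second promoter interval was listed after UV only, at chr1:226063526-226063861 in intron 1, with a −log10 q of 7.12. The gene body held 4 intervals without UV and 2 after UV, all in intron 3. Those at chr1:226067468-226067802 (−log10 q of 8.46) and chr1:226070034-226070840 (7.78) had a counterpart after UV, with 6.48 and 7.92. Among all intervals of their lists they ranked at the 73.6 and 70.9 percentiles without UV, and their counterparts at 54.4 and 63.7. The intervals without UV with −log10 q of 2.26 and 4.61 had no counterpart. The density of gene-body intervals was 39.3 per 100 kb without UV and 19.7 after UV, at the 98.6 and 92.8 percentiles of the 14901 protein-coding genes of at least 10 kb. *H3-3A* is close to that minimum length, so each interval weighs heavily in its density.

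*H3-3B*, the other H3.3 gene (chr17:75776434-75785893, minus strand, 9460 bp, 11 TSSs), differed from *H3-3A* in where the interval lay. The strongest interval sat downstream of the canonical TSS, at chr17:75778820-75779764 without UV (945 bp, −log10 q of 35.7, 86.5 percentile, 6.42-fold). After UV it was listed at chr17:75778723-75779814 (1092 bp, −log10 q of 71.1, 92.9 percentile, 9.37-fold). The strongest summit was in intron 1, at 199 bp without UV and 185 bp after UV from the TSS. The interval after UV reached 85 bases into the printed *H3-3B* window, 50 more than without UV. The TATAAA match at -29 lay inside the interval after UV and outside the one without UV, and the 4 CCAAT matches lay outside both.

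*H3-3B* also has TSSs at -5707 and -6114 bp from the canonical one, and a strong interval lay beside them. It spanned chr17:75784722-75785172 without UV (−log10 q of 25.9) and chr17:75784685-75785209 after UV (59.8). *UNK* and *MIR4738* start within 1 kb of it. After UV only, another interval was listed upstream of the gene at chr17:75786559-75786924, with a −log10 q of 11.1. A further interval lay just past the 3′ end of the gene, at chr17:75775795-75776352 without UV (−log10 q of 21.8, 93.4 percentile of all intervals of the list) and chr17:75775703-75776407 after UV (16.4, 84.3 percentile). *H3-3B* had 10 intervals in each library, 8 of the 10 without UV with a counterpart after UV.

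*H3-5* (chr12:31791185-31792298, minus strand, 1114 bp, 1 TSS) had no interval in either library. The interval nearest to its TSS was 42107 bp away without UV and 42060 bp after UV. Genes with 1 annotated TSS carried a promoter interval in 22.2% of cases without UV and 26.7% after UV. *H3-5* and *H3-3B* are close in sequence, and how reads with several possible positions were handled is not given in the sources used here.

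The genes whose promoter ranks were nearest to those of each H3.3 gene were found among 8973 protein-coding genes by the Euclidean distance over the percentiles of the 2 libraries. For *H3-3A* they were *NPC1* (distance 0.535 percentile points), *S100A10* (0.595) and *ARFGEF1* (0.655). For *H3-3B* they were *CILK1* (0.297), *RMND5A* (0.396) and *RNF103-CHMP3* (0.396), the last with the same ranks as *RMND5A*.

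*HIRA*, which encodes the scaffold of the HIRA complex (chr22:19330698-19447450, minus strand, 116753 bp, 4 TSSs), held 11 intervals without UV, the most of the 10 genes, and 8 after UV, when *H3-3B* had the most. At the canonical promoter, chr22:19431710-19432502 (793 bp) had a −log10 q of 16.8 without UV, the 63.7 percentile, and 4.59-fold enrichment. After UV the overlapping interval was chr22:19431734-19432699 (966 bp, −log10 q of 24.2, 4.76-fold). Both had their strongest summit upstream, at -490 and -365 bp. *MRPL40*, which encodes a mitochondrial ribosomal protein, starts within 1 kb of both.

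The library after UV also listed an interval on the other side of the *HIRA* start, in intron 1, at chr22:19431027-19431562 (536 bp, 5.95-fold, summit at 393 bp). Its −log10 q of 14.7 was the highest among the 13 intervals after UV without a counterpart in the 10 genes. Between it and the upstream interval lies a gap that holds the canonical TSS, only 1 bp from the edge of the upstream interval. The lower-case end of the printed *HIRA* window is part of that gap. Without UV the upstream interval included the TSS and reached 23 bp past it. Another promoter interval in intron 1 was listed without UV only, at chr22:19429158-19429454 (−log10 q of 3.57), 809 bp from the nearest *HIRA* TSS.

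At the most distant *HIRA* TSS, -15717 bp from the canonical one, *C22orf39* and *UFD1-AS1* also start. The interval there was chr22:19447341-19447734 without UV (394 bp, −log10 q of 6.91, 2.56-fold) and chr22:19447245-19448062 after UV (818 bp, 31.9, 5.79-fold). Thus the strongest promoter interval of *HIRA* was at the canonical TSS without UV and at the distant TSS after UV, where it reached the 71.3 percentile.

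In the *HIRA* gene body, 8 intervals were listed without UV and 5 after UV. In each library most of them lay upstream of the canonical transcript, between it and the distant TSS. Those at chr22:19432900-19433289 and chr22:19433631-19433963 without UV, and their counterparts after UV, also lay within 1 kb of an *MRPL40* TSS. The one without UV at chr22:19438531-19438939, -7004 bp from the canonical TSS at its summit, had a −log10 q of 18.7 and 9.30-fold enrichment, the highest −log10 q among the 17 intervals without UV that had no counterpart. After UV, intron 15 held intervals at chr22:19362774-19363085 (2.61) and chr22:19369491-19370362 (5.09) that the library without UV lacked. The density was 6.85 per 100 kb without UV and 4.28 after UV, the 72.4 and 67.1 percentiles.

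*UBN1*, which encodes the ubinuclein that binds H3.3 within the HIRA complex (chr16:4846665-4882401, plus strand, 35737 bp, 9 TSSs), carried 1 strong interval at its start. Without UV it spanned chr16:4847536-4848280 (745 bp, −log10 q of 15.1, 59.3 percentile, 4.20-fold). After UV it spanned chr16:4847383-4848347 (965 bp, −log10 q of 33.5, 72.9 percentile, 7.56-fold). Both had the strongest summit in the 5′ UTR part of exon 1, at 539 and 571 bp, and *GLYR1* starts within 1 kb. The interval without UV began past the canonical TSS, and the one after UV began before it, which gives the 148 capital bases of the printed window. A weak interval near an internal TSS was listed in both libraries, with −log10 q of 2.10 without UV and 5.58 after UV. The gene body held 4 intervals without UV and 1 after UV, or 11.2 and 2.80 per 100 kb (82.0 and 60.4 percentiles).

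*UBN2*, which encodes the paralogue of UBN1 (chr7:139230356-139308236, plus strand, 77881 bp, 4 TSSs), had the narrowest strongest promoter interval of the 7 genes without UV. It spanned chr7:139231893-139232331 (439 bp, −log10 q of 11.99, 50.8 percentile, 4.44-fold), with its summit in intron 1 at 845 bp. After UV the interval spanned chr7:139231446-139232356 (911 bp, −log10 q of 30.6, 69.8 percentile, 9.39-fold), with its summit in coding exon 1 at 627 bp. Neither reached the TSS. A weak interval upstream of the canonical TSS, with a −log10 q of 1.73, was listed after UV only. In the gene body, 1 interval in intron 11 (−log10 q of 4.72) was listed without UV and 0 after UV.

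*CABIN1*, which encodes the large calcineurin-binding subunit of the HIRA complex (chr22:24011192-24178628, plus strand, 167437 bp, 14 TSSs), carried no interval at its 5′ end in either library. The interval nearest to the canonical TSS was 4372 bp away without UV, in intron 1 (chr22:24015676-24016146, −log10 q of 6.07), and 79582 bp away after UV. This bare start, printed above without capitals, is 72.3% G and C with 42 CpG.

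The strong *CABIN1* interval lay deep in the gene, in intron 29, over internal TSSs of shorter transcripts, the first at chr22:24155838. It spanned chr22:24155760-24156802 without UV (1043 bp, −log10 q of 33.7, 85.3 percentile, 7.85-fold) and chr22:24155794-24156828 after UV (1035 bp, 38.8, 78.0 percentile, 6.64-fold). Its sequence around the summit after UV is shown for comparison with the bare 5′ end, with each CpG in capitals. These 151 bases held 22 CpG, and the whole interval after UV held 109 CpG at 72.3% G and C.
CABIN1 internal summit, chr22:24156277-24156427, hg38, plus strand: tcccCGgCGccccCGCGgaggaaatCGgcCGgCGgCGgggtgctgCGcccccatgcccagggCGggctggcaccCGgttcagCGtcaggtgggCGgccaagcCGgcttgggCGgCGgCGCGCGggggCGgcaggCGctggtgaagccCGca

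After UV only, a weaker interval lay at another internal *CABIN1* TSS, chr22:24166911-24167246, over coding exon 32 (−log10 q of 6.08). The 2 gene-body intervals without UV, in intron 1 and intron 15, had no counterpart.

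**Figure D2:**
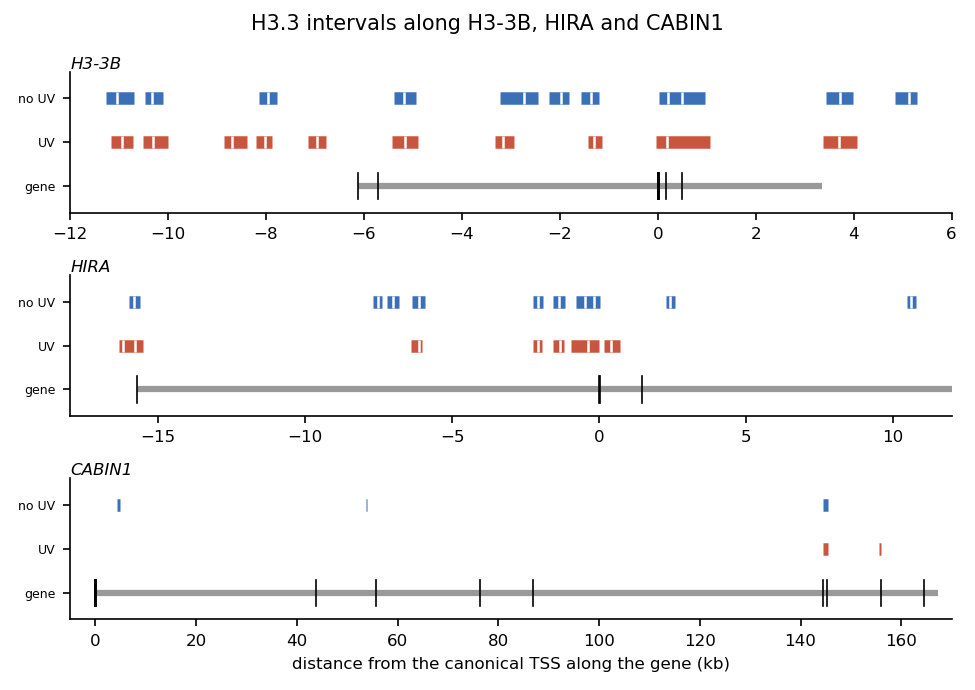
H3.3 intervals along *H3-3B*, *HIRA* and *CABIN1* by distance in kb from the canonical TSS, with blue bars for no UV, red bars for UV, grey bars for the gene and black ticks for TSSs. Summits are white ticks for *H3-3B* and *HIRA*, and the *HIRA* panel ends at 12 kb. *CABIN1* had no interval at its 5′ end in either library, the nearest without UV lying 4372 bp from the canonical TSS. Deep in the gene it had 1 strong interval in both libraries and a weaker one at another internal TSS after UV only. *H3-3B* and *HIRA* had intervals at upstream TSSs as well as at the canonical one.

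*ASF1A*, which encodes the histone donor that delivers H3.3-H4 to the HIRA complex (chr6:118894152-118909171, plus strand, 15020 bp, 2 TSSs), had the highest-ranked promoter interval of the 10 genes in both libraries. Without UV it was chr6:118894248-118895404 (1157 bp, 2 summits), with a −log10 q of 66.6, 9.27-fold enrichment and a rank at the 97.0 percentile. After UV it was chr6:118893712-118895441 (1730 bp, 3 summits), with a −log10 q of 107, 13.5-fold enrichment and the 98.0 percentile. The strongest summit was in intron 1, at 558 bp without UV and 540 bp after UV. The interval after UV extended 536 bp further upstream, across the whole printed window, and only 37 bp further downstream. *MCM9*, which encodes a factor of recombination repair, starts within 1 kb. *ASF1A* had no other interval in either library.

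*ATRX*, which encodes the chromatin remodeler that works with DAXX (chrX:77504880-77786233, minus strand, 281354 bp, 22 TSSs), had intervals only in intron 1 and none at its start. There were 2 without UV, with −log10 q of 3.29 (chrX:77766184-77766494) and 3.55 (chrX:77778399-77778808). After UV there were 4, with −log10 q of 3.04, 2.23, 5.73 and 10.3. The strongest of these, chrX:77766167-77766579, at the 72.5 percentile of all intervals of its list, overlapped the first interval without UV, and the other 3 had no counterpart. The interval nearest to the canonical TSS was 7408 bp away without UV and 19637 bp after UV. The density was 0.711 and 1.42 per 100 kb, the 43.3 and 51.7 percentiles, where the medians over all genes of this length class were 1.76 and 1.15. Among the 531 such genes on chromosome X the medians were 0 and 0, with no gene-body interval in 61.4% without UV and 66.3% after UV. Of 859 protein-coding genes on chromosome X, 26.7% had a promoter interval without UV and 31.4% after UV. Of 1154 genes with at least 20 TSSs, 78.3% and 82.1% had one.

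*DAXX*, which encodes the H3.3-specific chaperone of that pair (chr6:33318558-33323016, minus strand, 4459 bp, 9 TSSs), had 0 intervals without UV and 2 after UV. Both lay beyond the 3′ end of the gene, at chr6:33317574-33317872 (−log10 q of 4.76) and chr6:33318190-33318510 (5.66), and *ZBTB22* starts within 1 kb of both. The nearer one was 1950 bp from the nearest *DAXX* TSS and 4449 bp from the canonical one. Neither had a counterpart without UV. The interval nearest to any *DAXX* TSS without UV was 5146 bp away, just outside the 5 kb limit. From the canonical TSS the nearest was 7645 bp away.

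**Figure D3:**
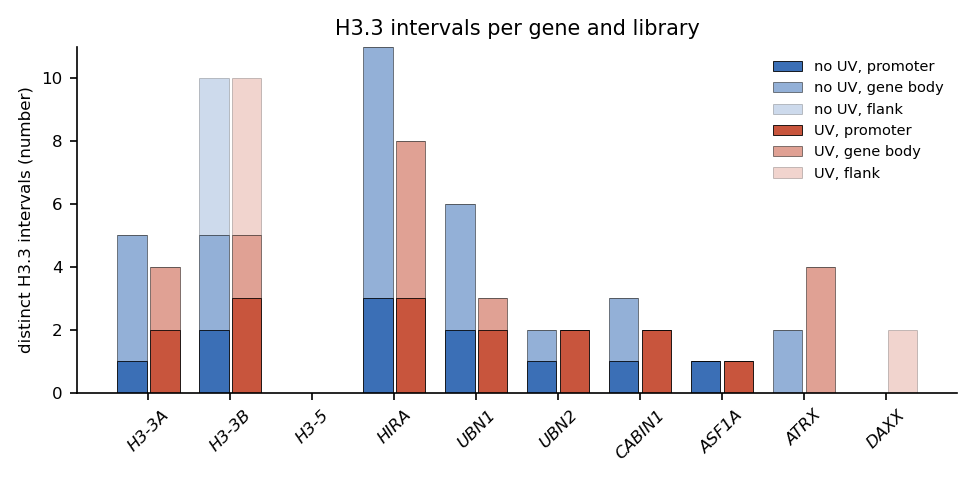
Number of distinct H3.3 intervals per gene without UV (blue) and after UV (red), split into promoter (dark), gene body (medium) and flank (light). *HIRA* had 11 and 8 intervals, *H3-3B* 10 and 10, *H3-5* none, and *ATRX* and *DAXX* had more intervals after UV (4 and 2) than without (2 and 0). Without UV an interval lay 5146 bp from a *DAXX* TSS, just outside the 5 kb limit.

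Summed over the 10 genes, 40 intervals were listed without UV and 36 after UV. This order turned when the longer list was reduced to the length of the shorter by −log10 q (34 and 36 intervals) and at a −log10 q of 5 or more (18 and 24). The promoter class had 11 and 15 intervals, the gene-body class 24 and 14, and the flank class, within 5 kb of a TSS outside the gene, 5 and 7. Counted the same way over all protein-coding genes, promoters had 19848 and 21695 intervals, gene bodies 51560 and 42224, and flanks 9174 and 9009, so the gene-body count was lower after UV for genes in general too. Promoter intervals covered 8203 bp without UV and 11768 bp after UV. The strongest promoter intervals of all protein-coding genes had median widths of 534 and 632 bp. Their median −log10 q was 11.7 and 17.7, so both values were larger after UV for genes in general too. The HIRA complex genes with *ASF1A* had 15 gene-body intervals without UV and 6 after UV, the H3.3 genes 7 and 4, and *ATRX* with *DAXX* 2 and 4. By class, the median −log10 q was 16.8 and 30.6 for promoters, 3.98 and 4.90 for gene bodies and 4.69 and 4.76 for flanks, and the gene-body medians were below the medians of the whole lists, 4.99 and 5.84.

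Of the 40 intervals without UV, 23 overlapped an interval of the other list by at least 1 bp, or 57.5% (95% Clopper-Pearson interval 40.9 to 73.0%). After UV it was 23 of 36, or 63.9% (46.2 to 79.2%). These 95% intervals cover counting error only. They treat the H3.3 intervals as independent, although *HIRA* and *H3-3B* held 11 and 10 of the 40 without UV. The overlaps were counted from both sides, so the shares of the libraries are not independent either. The shares over the whole lists were 57.3% and 65.6%. For the 10 genes the order of the shares turned with lists of equal length (61.8% without UV and 58.3% after UV) and at a −log10 q of 5 or more (77.8% and 58.3%). Promoter intervals had a counterpart in 10 of 11 cases without UV and 10 of 15 after UV, gene-body intervals in 9 of 24 and 9 of 14. Over all protein-coding genes these shares were 77.4% and 68.0% for promoter intervals, and 51.3% and 63.0% for gene-body intervals. The median −log10 q of the intervals with a counterpart was 7.78 without UV and 9.70 after UV, and without one 3.88 and 5.09.

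The widths of the strongest promoter interval without UV and the one it overlapped after UV were compared after the values had been seen. It was wider after UV in 6 of 7 genes, and 72.3% of 8346 such pairs over all protein-coding genes were wider, so the share is near that of genes in general. The median difference was 173 bp for the 7 genes and 92.5 bp for all pairs. The *ASF1A* interval was 573 bp wider (88.4 percentile of all differences) and the *UBN2* interval 472 bp wider (84.8 percentile), mostly on the upstream side, by 536 and 447 bp. *UBN1* (220 bp), *HIRA* (173 bp), *H3-3B* (147 bp) and *H3-3A* (89 bp) lay between the 70.8 and 49.3 percentiles. *CABIN1* differed by -8 bp.

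**Figure D4:**
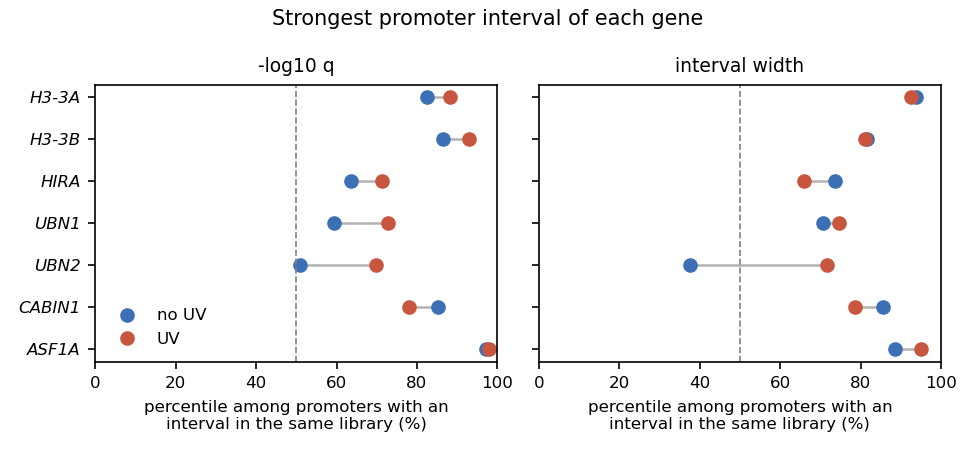
Rank of the strongest promoter interval of 7 genes by −log10 q (left) and by width (right), as a percentile among all protein-coding genes with a promoter interval in the same library, without UV (blue) and after UV (red). The dashed line is the 50th percentile. By −log10 q all 7 genes lay above it in both libraries, from 50.8 (*UBN2*) to 97.0 (*ASF1A*) without UV and from 69.8 to 98.0 after UV. By width, *UBN2* lay below it without UV (37.5). By fold enrichment, not drawn, *HIRA* (42.5), *UBN1* (33.5) and *UBN2* (39.1) lay below it without UV. The other genes without UV, and all 7 after UV, lay above it by fold. The median fold over all such genes was 4.96 without UV and 5.77 after UV. The *HIRA* points are 2 different intervals.

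The side of the summit also varied among the genes. The strongest interval had its summit downstream of the canonical TSS in *H3-3B*, *UBN1*, *UBN2* and *ASF1A* in both libraries, and upstream in *H3-3A* and *HIRA*, for *HIRA* at the distant TSS after UV. In *CABIN1* it lay deep in the gene. Of all protein-coding genes with that summit within 1 kb of the canonical TSS, 66.6% had it downstream without UV and 68.1% after UV, with medians of 166 and 157 bp.

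The surroundings of the genes were compared after their values had been seen. In the kilobase around the canonical TSS, *H3-3A*, *HIRA* and *UBN1* had 74.6%, 73.8% and 75.3% G and C. Genes within 2 percentage points of them carried a promoter interval in 70.3% to 71.2% of cases without UV and in 78.2% to 79.1% after UV. *H3-3B* (58.0%) and *ASF1A* (57.4%) had less G and C. Genes like them carried one in 44.7% and 43.1% of cases without UV and in 50.7% and 49.3% after UV. For *UBN2* (66.9%) and *CABIN1* (61.9%) the shares were 64.3% and 53.7% without UV and 73.1% and 61.5% after UV. For *H3-5* (53.6%) and *ATRX* (53.0%) they were 35.4% and 32.7% without UV and 38.7% and 35.8% after UV. For *DAXX* (59.5%) they were 47.7% without UV and 54.3% after UV. The part of G and C content in the promoter calls of the 10 genes was not tested.

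Among the 50 nearest protein-coding genes of each, the number with a promoter interval was highest around *H3-3B*, 41 without UV and 43 after UV. It was lowest around *ATRX*, with 12 and 12. *CABIN1* had 14 and 19 such neighbors, *UBN2* 18 and 22, *ASF1A* 18 and 24, and *DAXX* 19 and 25. *UBN1* had 27 and 33, *HIRA* 29 and 33, *H3-3A* 30 and 36 and *H3-5* 33 and 34.

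A list of 21 other chaperones and handling factors of histone H3 was taken as a comparison. Of these, 14 had a promoter interval in both libraries, 3 in neither (*SSRP1*, *SPTY2D1* and *HJURP*), 2 only after UV and 2 only without UV. Over all protein-coding genes these states had shares of 44.8%, 42.8%, 9.2% and 3.2%. In several genes of the list the strongest promoter interval lay far inside the gene, up to 39005 bp from the canonical TSS without UV and 39923 bp after UV. The 2 genes with one only after UV were *CHAF1B*, a subunit of the replication-coupled chaperone CAF-1, at an internal TSS (chr21:36398995-36399353, −log10 q of 8.48), and *RBBP4*, another CAF-1 subunit (chr1:32669588-32670085, 10.7). Their summits lay 13773 bp (*CHAF1B*) and 18586 bp (*RBBP4*) downstream of the canonical TSS, so neither was at the canonical start. Those only without UV were *ASF1B*, the paralogue of *ASF1A* (chr19:14137551-14138265, 10.4), and *IPO4*, an importin of H3 and H4 (chr14:24188347-24188732, 2.71). The median rank of the strongest promoter interval by −log10 q was at the 43.3 percentile without UV and 36.2 after UV in this list, and at 82.4 and 78.0 in the 7 occupied genes of H3.3 and its deposition. No test was made between these lists.

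Of 14 partners of H3.3 deposition, remodelers and readers, 12 had a promoter interval in both libraries, 1 in neither (*H2AZ1*) and 1 only after UV. The last was *ZMYND11*, which encodes a reader of methylated H3.3 (chr10:135145-136204, −log10 q of 6.90). The median ranks were at the 52.6 and 69.5 percentiles. Over all protein-coding genes, 44.8% had a promoter interval in both libraries, 42.8% in neither and 9.2% only after UV. In several of the 14 genes the strongest promoter interval lay far inside the gene, up to 61570 bp from the canonical TSS without UV and 62167 bp after UV.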

How the data were processed

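H3.3 ChIP-seq was analyzed in 1 library without UV and 1 after UV-C, grouped by their labels; the input libraries were not used here. According to the methods, reads were trimmed, aligned to hg38 with BWA and cleared of duplicates with Biobambam2. The submitters' processing notes list bcl2fastq 2.17, Trimmomatic 3.36, BWA 0.7.12 and MACS 1.4.2. The narrowPeak layout, with a q value and a summit in each row, is that of later MACS versions, so the version behind these lists is uncertain. The control and threshold for H3.3 peaks are not given in the sources used here. Each deposited row gives a score, a fold enrichment (the ratio to local background), −log10 p and −log10 q, which the authors computed library by library. Both lists start at a −log10 q of 1.30, a q value of 0.05.

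Peaks that share start and end were merged into 1 interval with its highest −log10 q. Genes and TSSs came from GENCODE release 44, and promoter windows from RefSeq. Beyond the 10 genes, the text names genes of 2 comparison lists whose promoter state differed between libraries, neighbors that start within 1 kb, and the 3 genes nearest in rank to *H3-3A* and *H3-3B*. List genes with an interval in neither library, and marker genes, are named beside their counts, and some of the marker results are not reported here. The 10 genes and the comparison lists were chosen by name. No measured value entered the rule for the 10 genes, but earlier results of these data were known when the genes and lists were chosen. With 1 library per condition there is no p-value. The scripts were tested on simulated lists. Alternatives were the promoter distance, the summit in place of the interval, canonical TSSs, stricter −log10 q, the overlap, equal list lengths and repeated summits. Software was Python 3.11.15 with matplotlib 3.10.9, numpy 2.4.6, pandas 2.3.3 and scipy 1.17.1.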

Additional observations from a re-analysis of the deposited data

How the results depend on the processing

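Of 52 recomputed values, 48 stayed within 1.5 times the reported count or within the counting interval of the reported share. With promoters defined as 2 kb or 5 kb from a TSS, 1 gene in place of 0 gained a promoter interval after UV, *DAXX*, through the interval 1950 bp from its nearest TSS. When both lists were limited to intervals whose −log10 q was 5 or more, 18 of the 40 intervals without UV were kept and 24 of the 36 after UV, and 77.8% and 58.3% of these had a counterpart, against 57.5% and 63.9%. With lists of equal length the numbers were 34 and 36 intervals and 61.8% and 58.3%, so both settings turned the order of the libraries. This alternative removes the weaker intervals by construction. The same 7 genes had a promoter interval in each library under the other distances, thresholds, list lengths and summit rule, except that *CABIN1* was absent with canonical TSSs alone and *DAXX* was added after UV at 2 and 5 kb. The depth of the libraries is unknown, and its part in intervals listed in 1 library only was not tested. No paired analysis was possible because each condition had 1 library, and no replicate could be left out.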
